A study of Drosophila melanogaster with 13 samples.

Results

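The bithorax complex on chromosome arm 3R holds the 3 Hox genes Ubx, abd-A and Abd-B, which encode the proteins whose binding was profiled. Its peaks were taken as all those that overlap 3R from 12.48 to 12.81 Mb of BDGP release 5, a region of 330 kb that holds the genes with their regulatory DNA. This gave 165 of the 93820 peaks in the 12 deposited lists. At a q-value of 1e-10 (the stringent lists) the region held 60 of 34149 peaks, and at a q-value of 1e-2 (the relaxed lists) it held 105 of 59671.

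All profiles came from Kc167 cells, a line from female late embryos, which express no Hox proteins of their own and lack functional Exd and Hth. The cells were transiently transfected with a plasmid in which the metallothionein promoter drives a GFP-tagged protein, sorted for an equal level of GFP 4 h after induction, and assayed by ChIP-Seq with one anti-GFP antibody. Experiment 1 profiled Ubx, Abd-A and Abd-B, with 2 biological replicates of each, and their pooled input. Experiment 2 profiled Ubx in 1 replicate, and in 2 replicates each a mutant Ubx with 5 substitutions in homeodomain residues that contact DNA and Ubx expressed together with Hth (Ubx+Hth). Reads of replicates were merged ahead of peak calling, so no value here has a replicate error. The input of Experiment 1 served as control for the profiles of both experiments. Reads were 36 bp long in Experiment 1 and 100 bp long in Experiment 2, and the Ubx+Hth and mutant Ubx libraries were sequenced more deeply than the others. Depth cannot be read from the lists, so scores were ranked only within a list.

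Ubx specifies the posterior thorax and the first abdominal segment, abd-A the abdominal segments behind it, and Abd-B the posterior abdomen and genitalia. The genes lie along the chromosome in the order of the segments they control, and most of the complex is not coding. Long regulatory domains between and within the genes contain enhancers, Polycomb response elements, which keep the genes silent where they are off, and boundary elements, which separate neighbouring domains. Hox proteins also act on genes of their own complex: in the embryo the posterior proteins repress the more anterior genes. Rising coordinates run from Ubx through abd-A to Abd-B. A RefSeq gene table of release 6 gave the same order, with 17 genes from Ubx to Abd-B, of which 8 are long non-coding RNAs (bxd and iab8 among them) and 2 are microRNAs. That table is of another release and a release 5 annotation or genome was not used here. Peaks are therefore given by position only, with no gene part, regulatory element or sequence assigned to them.

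The authors took out the reads that fell on exons of the transfected Hox and Hth genes, because the expression plasmids produce such reads. The exons of the 3 genes can therefore show no peak, whether or not the proteins bind there, and the lists bear on the rest of the region only.

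Peaks that overlapped between lists were joined into sites, which are named here by the distance of their centre from the start of the region. The 60 stringent peaks fell into 15 sites, separated by gaps of 3769 to 40572 bp with a median of 24490 bp. Of these 15 sites, 5 (33.3%) had a stringent peak in all 6 profiles. Over the whole genome 1267 of 10659 sites did so, or 11.9%. A further 3 sites of the region had a peak in 5 profiles, 2 in 4 profiles and 2 in 2 profiles. The remaining 3 sites (20.0%, against 37.4% of all sites) were called in a single profile. At the relaxed q-value the region held 31 sites. Of these, 10 (32.3%) had a peak in every profile, against 26.9% of all relaxed sites, and 12 (38.7%) had a peak in a single profile, against 41.1%. All 10 were among the 15 sites with a stringent peak.

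**Figure D1:**
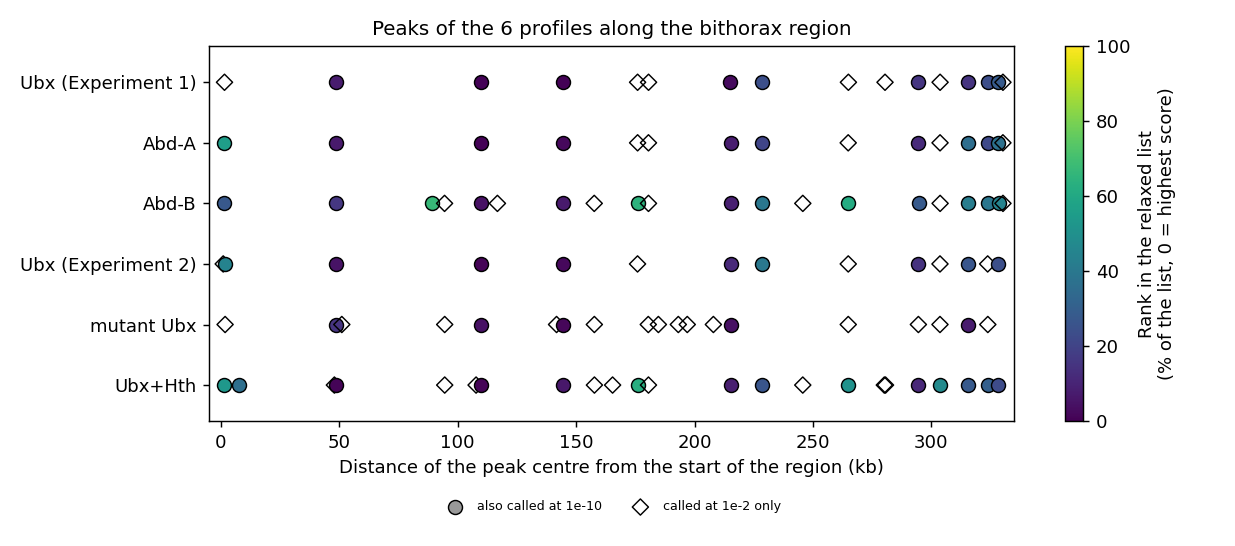
Peak centres of the 6 profiles (rows) against the distance from the start of the region in kb. Filled circles are peaks called at a q-value of 1e-10, coloured by their rank in the relaxed list as a percentage of the list (0 is the highest score), and open diamonds are peaks called only at 1e-2. Columns of 6 circles mark the 5 sites called in every profile, of which 4 lie between 48.7 and 215.2 kb and 1 at 315.6 kb.

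The 5 sites called in every profile carried most of the high ranks. In both Ubx profiles, Abd-A and Abd-B the highest-ranked peak of the region was at the 109.9 kb site (12589430 to 12590283). Here the score, which is the -log10 of the q-value, was 191 in Ubx of Experiment 1 (rank 56 of 4830), 192 in Abd-A (rank 42 of 5656) and 222 in Abd-B (rank 558 of 9681). In Experiment 2 it was 127 in Ubx (rank 98 of 4218), 33.4 in mutant Ubx (rank 445 of 1793) and 258 in Ubx+Hth (rank 132 of 7971). The site thus lay in the highest 6% of 5 lists and at 24.8% of the mutant list.

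The 144.5 kb site (12624065 to 12624940) was the highest-ranked peak of the region for mutant Ubx. Its mutant score was 50.9 (rank 167), which places it at 9.31% of the list, the only mutant peak of the region within the highest 10%. Ubx of Experiment 1 ranked it 63 with a score of 183, Abd-A 197 with 137 and Abd-B 861 with 190. In Experiment 2, Ubx scored 101 (rank 201) and Ubx+Hth 154 (rank 793). Ubx+Hth was thus at 9.95% of its list here and Ubx alone at 4.77%.

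As a percentage of the stringent lists, the profiles of Experiment 2 lay furthest apart at the 48.7 kb site (12528391 to 12529098). Ubx+Hth scored 269, rank 100 and the highest score of that list in the region. Ubx alone scored 74.2 (rank 450, 10.7% of its list) and mutant Ubx 19.4 (rank 1310, 73.1% of its list). The mutant peak was 209 bp wide, against 643 bp for Ubx and 708 bp for Ubx+Hth. In the relaxed lists the mutant peak was 533 bp wide, against 846 and 820 bp. Its place was 15.1% of the relaxed list, against 5.02% for Ubx and 0.846% for Ubx+Hth. Mutant Ubx and Ubx+Hth lay further apart at 294.5 kb in the relaxed lists, at 55.0% and 11.3%. In Experiment 1 the scores were 80.0 for Ubx, 88.3 for Abd-A and 126 for Abd-B, at 13.9%, 11.4% and 21.4% of their lists.

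The 215.2 kb site (12694941 to 12695477) ranked highest in Ubx of Experiment 1, with a score of 120 (5.18% of the list). Ubx of Experiment 2 gave 47.5 at the same site (25.4%), so the profiles of one protein differed there by 20.2 percentage points. Mutant Ubx (35.5, 21.8%) was close to Ubx of Experiment 2 at this site only as a percentage of the stringent lists. Their ranks were 390 of 1793 and 1071 of 4218. In the relaxed lists mutant Ubx was at 3.99% (rank 373) and Ubx at 11.6% (rank 1004). Abd-A scored 83.5 (13.1%), Abd-B 169 (11.7%) and Ubx+Hth 135 (12.9%).

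The fifth, the 315.6 kb site (12795214 to 12796056), had lower ranks. They ranged from 28.7% of the list in Ubx of Experiment 1 (score 53.2) to 62.5% in Abd-A (31.2). Mutant Ubx, with 26.7 at 40.5% of its list, ranked above wild type Ubx of the same experiment, with 27.9 at 58.9%.

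**Figure D2:**
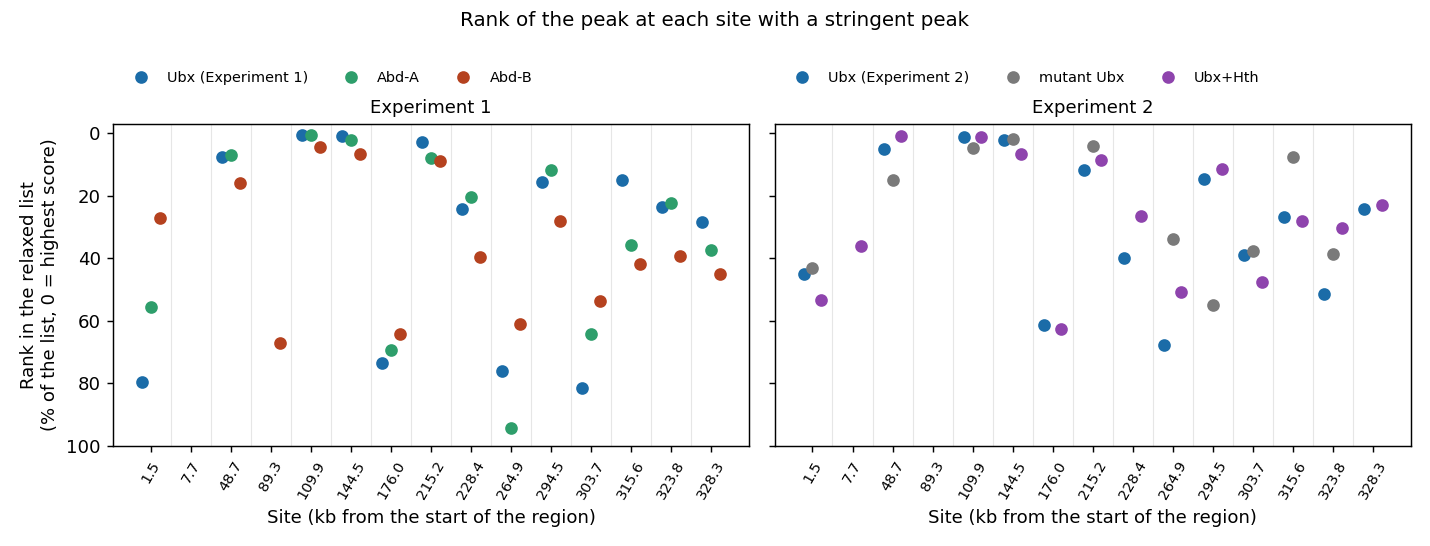
Rank of the peak at each of the 15 sites with a stringent peak (x axis, kb from the start of the region), as a percentage of the relaxed list (y axis, 0 at the top is the highest score), for Experiment 1 (left) and Experiment 2 (right). A missing point means no peak at either q-value. The 109.9 and 144.5 kb sites lie near the top in all 6 profiles, and the 7.7 and 89.3 kb sites each have a point from a single profile.

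The region was not rich in peaks. It was set beside 359 other windows of the same width, tiled along 2L, 2R, 3L, 3R, 4 and X, as a description with no test. Reads on exons of the 3 genes had been removed, so less than 330 kb of the region could hold peaks. The part of this in the comparisons with windows and flanks was not tested. Abd-B had 13 stringent peaks in the region, where the median window had 26, and 40 windows (11.1%) had fewer. Among the 82 windows of 3R alone, 2 (2.44%) had fewer Abd-B peaks. Ubx+Hth had 14 against a median of 22, Abd-A 10 against 15, Ubx of Experiment 1 9 against 13 and Ubx of Experiment 2 9 against 11. Mutant Ubx differed in direction, with 5 peaks against a median of 4, and 52.6% of windows had fewer. In the relaxed lists all 6 profiles had fewer peaks in the region than in the median window.

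The 330 kb on either side of the region held more stringent Abd-B peaks, with 36 on the side of Ubx and 32 on the side of Abd-B. For Ubx+Hth these numbers were 30 and 22. The flanks of Ubx in Experiment 1, with 10 and 16 stringent peaks, were closer to the 9 of the region. Abd-A had 18 and 16, against 10, and mutant Ubx 3 and 7, against 5. In the relaxed lists both flanks held more peaks than the region in every profile. They held 32 and 27 against 15 for Ubx of Experiment 1, and 45 and 40 against 20 for Abd-B. Stringent Abd-B peaks covered 8568 bp of the region and 26061 and 30793 bp of its flanks.

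**Figure D3:**
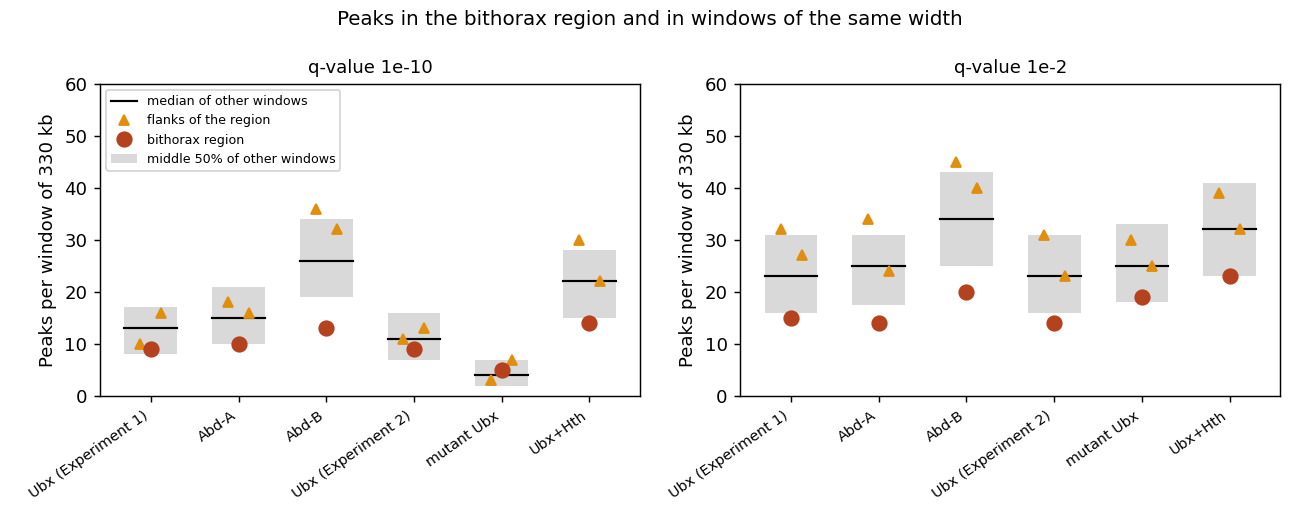
Number of peaks per 330 kb window for each profile at a q-value of 1e-10 (left) and 1e-2 (right). Circles are the bithorax region, triangles its left and right flanks, black lines the median of 359 other windows and grey bars their middle 50%. For Abd-B the circle, at 13 and 20 peaks, lies below the grey bar in both panels.

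Experiment 1 asked how the binding of the 3 Hox proteins differs. In the bithorax region, an Abd-A partner was found for 9 of 9 Ubx peaks (Wilson 95% interval 70.1 to 100%, counting error only), against 94.2% over the whole Ubx list. A partner was a peak of the other list where each covered at least 5% of the other. Of the 10 Abd-A peaks, 9 (90.0%) had a Ubx partner, against 76.1% of all Abd-A peaks. Every one of the 9 Ubx and 10 Abd-A peaks overlapped an Abd-B peak, where 97.7% and 97.1% of their whole lists did. In the other direction 10 of 13 Abd-B peaks (76.9%) were matched in Abd-A, against 52.5% of the whole Abd-B list, and 9 (69.2%) were matched in Ubx, against 43.5%. With so few peaks, the Wilson intervals of these shares, 49.7 to 91.8% and 42.4 to 87.3%, include the shares of the whole list.

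When the partner was sought in the relaxed lists, all Ubx and Abd-A peaks of the region were matched in the other profiles of Experiment 1. The whole-list shares were then 99.5% for Ubx in Abd-A, 98.1% for Ubx in Abd-B, 99.6% for Abd-A in Ubx and 98.9% for Abd-A in Abd-B. Of the 13 Abd-B peaks, 12 (92.3%) were matched in relaxed Ubx and 12 in relaxed Abd-A, against 74.7% and 80.4% of the whole list.

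The 4 Abd-B peaks without a stringent Ubx partner lay at 1.5, 89.3, 176.0 and 264.9 kb. Only the 89.3 kb peak (12568900 to 12569604, score 24.9, rank 8884 of 9681) had no Ubx or Abd-A peak at either q-value, and it was absent from all lists of Experiment 2 as well. At 176.0 kb Abd-B scored 27.9 and at 264.9 kb 31.5. Ubx and Abd-A had relaxed peaks at both sites, with scores of 10.4 and 12.7 at 176.0 kb and of 9.74 and 4.99 at 264.9 kb. Ubx+Hth was the other profile with stringent peaks at these sites (18.1 and 26.2).

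In the stringent lists the 1.5 kb site (12480693 to 12482286), at the end of the region nearest to Ubx, differed most in place between Abd-B and Abd-A. Abd-B had a peak of 1594 bp with a score of 88.3 (37.0% of the list), the widest stringent peak of the region. Abd-A had a peak of 251 bp there with a score of 18.6 (91.0% of the list). Ubx of Experiment 1 had only a relaxed peak, with a score of 8.70. The stringent peaks of Ubx+Hth (202 bp, score 24.2) and of Ubx in Experiment 2 (242 bp, score 17.4) covered different parts of the site and did not overlap. The relaxed peaks were closer in width, with 1739 bp for Abd-B, 1419 bp for Abd-A, 1404 bp for Ubx of Experiment 1 and 1418 bp for Ubx+Hth. Mutant Ubx had a relaxed peak of 865 bp. The relaxed peaks of Ubx in Experiment 2, of 365 and 776 bp, both overlapped that of Ubx+Hth.

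At each of the 9 sites that Ubx and Abd-B shared, Abd-B took a lower place in its list than Ubx did in its own. The differences ranged from 4.60 percentage points at 109.9 kb to 29.0 at 315.6 kb, with a median of 7.74. Over all 4719 matched Ubx peaks the median difference was in the other direction, at -15.8, and Abd-B took the higher place in 73.1%. A peak near the top of a list has little room above it, so matched peaks of a similar place were also used. When only the 2598 matched peaks no lower in the Ubx list than the lowest member of the region were used, Abd-B took the higher place in 58.3%, with a median difference of -3.41. The peaks of the region stayed on the other side of that median. By rank number in place of the percentage, Abd-B was also lower than Ubx at all 9 sites, and it was higher for 39.1% of all matched peaks. At the relaxed q-value, where 14 peaks were matched, Abd-B took the higher place at 5, or at 2 by rank number. The shares of all matched peaks were 70.1% and 46.9%.

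Against Abd-A, Abd-B ranked higher at 4 of 10 matched sites, where it did so for 66.2% of all matched peaks in the same range of ranks. This range reached down to 91.0% of the Abd-A list and kept 5024 of 5490 matched peaks. It therefore did little to limit the comparison to peaks of a similar place, and the share over all matched peaks was 68.8%. By rank number Abd-B was higher at 1 of 10, against 39.2% of all matched peaks. Abd-A ranked higher than Ubx at 5 of 9 sites, and for 60.9% of matched peaks in the same range. Abd-B peaks were a little wider than their Ubx partners, by a median factor of 1.19, and this factor was 1.78 over the whole list.

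**Figure D4:**
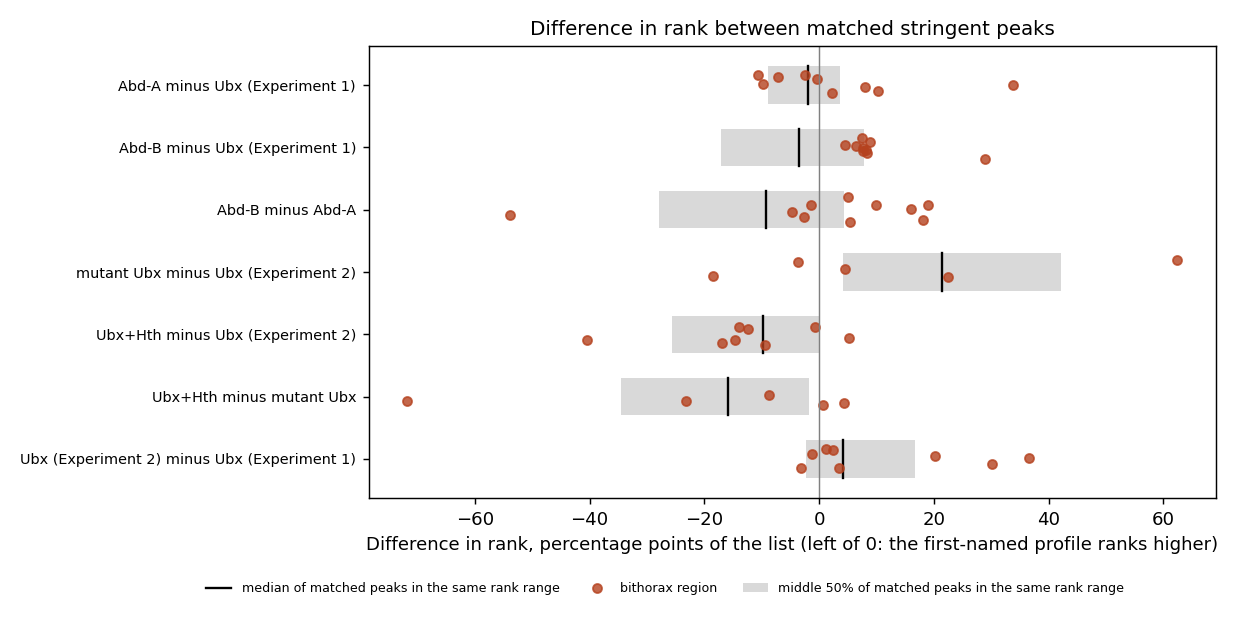
Difference in rank between matched stringent peaks, in percentage points of the list, for 7 pairs of profiles. Circles are peaks of the bithorax region, black lines the median and grey bars the middle 50% of matched peaks in the same range of ranks. In the second row the 9 circles for Abd-B minus Ubx all lie to the right of 0, from 4.60 to 29.0.

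Experiment 2 asked what remains of Ubx binding when its homeodomain contacts to DNA are mutated and how Hth changes it. Of the 9 stringent Ubx peaks in the region, 5 (55.6%; 26.7 to 81.1) had a mutant partner, against 34.1% of the whole Ubx list. All 5 mutant peaks had a Ubx partner, where 89.0% of the mutant list did. These were the 5 sites called in every profile. The mutant peaks were narrower than their Ubx partners at all 5, by a median factor of 0.763, where the median of all matched peaks was 0.496. Over all 1440 matched peaks the mutant peak was the wider in 5.97%. Mutant Ubx took a lower place in its list at 48.7, 109.9 and 144.5 kb, by 62.4, 22.5 and 4.55 percentage points. It took a higher place at 215.2 and 315.6 kb (differences of -3.64 and -18.4 points). Over matched peaks of the same range of ranks the mutant took the higher place in 16.1%. The order depended on the list. In the relaxed lists mutant Ubx took the higher place at 7 of 10 matched sites, 144.5 kb among them, against 51.7% of all matched peaks. By rank number it was higher at 3 of 5 stringent and 5 of 10 relaxed sites, against 60.3% and 47.0% of all matched peaks.

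With the mutant partner sought in the relaxed list, 7 of the 9 Ubx peaks (77.8%) were matched, against 86.6% of the whole list. Of the 4 Ubx peaks without a stringent mutant partner, those at 1.5 and 294.5 kb had a relaxed mutant peak, with scores of 9.03 and 6.79. The peaks at 228.4 kb (12708171 to 12708622) and 328.3 kb (12807807 to 12808870) had no mutant peak at either q-value. At these sites each of the other 5 profiles had a stringent peak. The Ubx score of Experiment 2 was 19.4 at 228.4 kb and 29.9 at 328.3 kb. The latter was higher than the 27.9 of Ubx at 315.6 kb, where the mutant had a stringent peak.

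The relaxed mutant list had 19 peaks in the region, against 14 for Ubx of the same experiment. Of the 19, 10 (52.6%) had a relaxed Ubx partner, against 66.9% of the whole relaxed mutant list, and 10 of the 14 relaxed Ubx peaks (71.4%) had a mutant partner, against 61.3%. At 6 sites only mutant Ubx had a peak, all relaxed, with scores from 2.90 to 8.50. The 4 at 184.7, 193.1, 196.9 and 208.0 kb followed each other along the chromosome with no peak of another profile between them. Relaxed sites with a peak in a single profile, whichever it was, made up 38.7% of the region's sites and 41.1% of all. Sites and runs of sites with mutant Ubx only were not counted over the whole genome.

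With Hth, 14 stringent peaks were called in the region, and 8 (57.1%; 32.6 to 78.6) had a partner in Ubx alone, against 48.6% of the whole Ubx+Hth list. In the other direction 8 of 9 Ubx peaks had a Ubx+Hth partner (98.2% of the whole list). The exception was the Ubx peak at 1.5 kb. As a percentage of the list, Ubx+Hth took a higher place than Ubx alone at 7 of the 8 matched sites. It did so for 75% of the 3499 matched peaks in the same range of ranks, out of 4144 matched in all. This order depended on the measure, since the Ubx+Hth list was longer and by rank number Ubx+Hth was higher at 3 of 8 sites (48.7, 215.2 and 228.4 kb), against 36.2% of all matched peaks. In the relaxed lists it was higher at 8 of 14 matched peaks by percentage and at 4 by rank number. The shares of all matched peaks were 67.8% and 42.1%. The largest of the differences in percentage was at 228.4 kb, from 82.6% of the list in Ubx alone (score 19.4) to 42.3% in Ubx+Hth (59.3). The Ubx+Hth libraries were deeper and the part of depth in this order was not tested.

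Of the 6 Ubx+Hth peaks without a partner in Ubx alone, the 7.7 kb peak (12487583 to 12487818, score 42.0, rank 4665) stood alone, with no peak of any other profile at either q-value. The 303.7 kb peak (12783568 to 12783804, score 28.9) was called at 1e-10 in Ubx+Hth only. It had a relaxed peak in every other profile. That of Abd-B scored 40.6 and lay at 53.6% of its relaxed list (rank 6610). Ubx+Hth lay at 47.5% of its own relaxed list there (rank 5562). The other 5 had relaxed partners, so that 13 of 14 (92.9%) were matched in the relaxed Ubx list, against 87.0% of the whole list. The peaks at 176.0, 264.9 and 323.8 kb had relaxed partners in Ubx alone, with scores of 11.7, 10.1 and 14.9. At 1.5 kb a relaxed Ubx peak (score 12.0) covered the Ubx+Hth peak.

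With relaxed partners the 5 mutant peaks stayed matched in Ubx and in Ubx+Hth (96.3% and 95.2% of the whole mutant list), and all 9 Ubx peaks were then matched in Ubx+Hth (99.3%). All 5 mutant peaks also had a Ubx+Hth partner (96.4% of the whole mutant list), and 5 of 14 Ubx+Hth peaks (35.7%) had a mutant partner, against 19% of that list. With relaxed mutant peaks as partners this rose to 9 of 14 (64.3%), against 64.5%.

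The profiles of Ubx in the 2 experiments could be set side by side as a check of one protein, although read length and platform differed between them. Each had 9 stringent peaks in the region, of which 8 (88.9%) were matched, against 72.8% of the list of Experiment 1 and 85.3% of that of Experiment 2. The unmatched peaks were the 323.8 kb peak of Experiment 1 (score 38.6), relaxed in Experiment 2 with 14.9, and the 1.5 kb peak of Experiment 2 (17.4), relaxed in Experiment 1 with 8.70. All 9 peaks of either profile had a partner in the relaxed list of the other (96.9% of the whole list of Experiment 1 and 98.9% of that of Experiment 2). In the relaxed lists 13 of 15 peaks of Experiment 1 and 14 of 14 of Experiment 2 were matched, against 82.3% and 84.2%. Ranks of matched peaks differed by -3.22 to 36.6 percentage points. The largest differences between profiles of one protein, 30.2 points at 315.6 kb and 36.6 at 228.4 kb, were larger than any between Ubx and Abd-B at the 9 sites. The median difference was smaller, at 2.96 points between the Ubx profiles and 7.74 between Ubx and Abd-B.

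The sites at 294.5, 323.8 and 328.3 kb complete the stringent peaks. At 294.5 kb (12774242 to 12774711) the score was 52.0 in Ubx of Experiment 1, 67.3 in Abd-A, 85.9 in Abd-B, 41.5 in Ubx of Experiment 2 and 114 in Ubx+Hth, between 17.6% and 38.1% of their lists. The 323.8 kb site (12803659 to 12804037) had similar places in the lists of Experiment 1, from 38.2% in Abd-A (45.8) to 54.3% in Abd-B (62.2), and was at 48.5% in Ubx+Hth (51.6). At 328.3 kb the Abd-B peak, with 925 bp, was the widest of the 5, and the others were 291 to 625 bp wide.

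Of the 16 sites without a stringent peak inside the region, 10 had a peak in 1 profile, 6 of them in mutant Ubx, 3 in Ubx+Hth and 1 in Abd-B. The share of such sites in each profile was not counted over the whole genome. The highest score among the sites with relaxed peaks only was 29.9, at 107.7 kb in Ubx+Hth alone (12587637 to 12587856). Next were the 157.7 kb site (12637476 to 12637961), with 27.9 in Ubx+Hth, 20.4 in Abd-B and 17.9 in mutant Ubx, and the 180.5 kb site (12660179 to 12660744), with 25.3 in Ubx+Hth. The latter had a peak in every profile but Ubx of Experiment 2. Abd-B, mutant Ubx and Ubx+Hth, but neither Ubx nor Abd-A alone, shared the sites at 94.5 and 157.7 kb. The site at the far end of the region, at 330.2 kb, crosses the bound of the region at 12.81 Mb. The relaxed Abd-B peak there (12809977 to 12810509, score 31.6) reached into the region, while its stringent counterpart from 12810044 to 12810365 lay outside.

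With both lists relaxed, all 14 Abd-A peaks had partners in Ubx (83.9% of the whole relaxed Abd-A list) and in Abd-B (94.4%), and 14 of 15 Ubx peaks had one in Abd-A (94.2%) and in Abd-B (95.4%). Of the 20 relaxed Abd-B peaks, 15 (75%) had a Ubx partner and 15 an Abd-A partner, against 59.6% and 65.6% of the whole list. All 14 Ubx peaks of Experiment 2 had a Ubx+Hth partner (93.2% of the list), and 13 of 23 Ubx+Hth peaks (56.5%) had a Ubx partner, against 65.8%. Between mutant Ubx and Ubx+Hth, 13 of 19 mutant peaks (68.4%, against 71.9%) and 13 of 23 Ubx+Hth peaks (56.5%, against 47.6%) were matched.

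Absence from a stringent list did not always mean a score below 10. Of the 86 relaxed peaks in the region with a score of at least 10, 25 (29.1%) had no stringent peak, and the share over all lists was 30.3%. They included Abd-B at 303.7 kb (40.6), Abd-A at 180.5 kb (23.1) and Ubx of Experiment 2 at 303.7 kb (20.2). All 60 stringent peaks had the same score in the relaxed list. The narrowest peak of each profile had the same width in both lists, from 173 bp for mutant Ubx to 251 bp for Abd-B, and the part of this width limit in the absences was not tested.

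Stringent peaks of the region had a median width of 375 bp for Abd-A, against 563 bp over the whole list. For Ubx+Hth the median was 354 bp, against 483 bp, and for Ubx of Experiment 2 359 bp, against 464 bp. Ubx of Experiment 1 (488 and 493 bp), Abd-B (618 and 598 bp) and mutant Ubx (274 and 302 bp) were closer to their lists.

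Some peak edges coincided closely between profiles, and the sites at 176.0 and 1.5 kb are given as examples. At 176.0 kb the relaxed peaks of Ubx of Experiment 1, Abd-A, Abd-B and Ubx of Experiment 2 started at 12655769, 12655768, 12655764 and 12655766, and that of Ubx+Hth at 12655798. This spread of 34 bp was the smallest among the 17 sites with a single peak in 3 or more profiles, whose median start spread was 121 bp. At 1.5 kb the peaks of Abd-A, of Ubx of Experiment 2 and of mutant Ubx all ended at 12482190, and those of Ubx+Hth and Ubx of Experiment 1 at 12482197 and 12482205. Abd-B ended later, at 12482360. Close edges were also seen elsewhere, as at 228.4 kb, where the relaxed peaks of Ubx of Experiment 1, Abd-A and Ubx of Experiment 2 ended at 12708645, 12708646 and 12708647. Whether the removal of reads at exons set these edges was not tested.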

How the data were processed

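ChIP-Seq peaks of 6 conditions were used, each as 1 list at a q-value of 1e-10 and 1 at 1e-2. According to the study's methods and the submitters' processing notes, the authors mapped paired reads to BDGP release 5 with Bowtie 1.0.1 (inserts up to 1000 bp, unique reads only), used SAMtools 0.1.19, merged the replicates, filtered out exon reads of the transfected genes with bedtools 2.19.1, called peaks with MACS2 2.1.0.20140616 against the input of Experiment 1 and kept the main chromosome arms and M. The deposited score is the -log10 of the q-value. Start and end, deposited counting from 0, are given counting from 1.

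Partners were found in python 3.11.15 (numpy 2.4.6) at a minimum reciprocal overlap of 5%, as in the study's methods. They equalled those of bedtools 2.31.1 in 28 of 28 comparisons and were tested on simulated data (2000 of 2000 pairs right). Wilson intervals came from scipy 1.17.1 and figures from matplotlib 3.10.9. Ranks run from 1 for the highest score of a list. Sites are peaks of the 6 lists that overlap by at least 1 bp.

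Sites were named if they had a stringent peak, with the 3 highest-scoring sites that had relaxed peaks only. The 330.2 kb site, the runs of relaxed sites and the edges were described after their values were seen. The region, its genes and the comparisons were chosen with earlier results of these data known. The alternatives were other overlaps, the other q-value, lists of equal length, bounds moved by 10000 bp, joining of peaks closer than 500 bp, other windows and, added later, matched peaks limited to a range of ranks and rank numbers in place of percentages. Depth per sample is not in the files. Sequences and release 5 annotation were not used here.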

Additional observations from a re-analysis of the deposited data

How the results depend on the processing

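No paired analysis was possible because each deposited list merges its replicates, which also means that none could be left out singly. Of 148 alternative values chosen at the start, 97 stayed within 1.5 times the count or within the Wilson interval of the share and 51 did not. Where no value shows a cause, the cause was not tested. At 1e-2 the region held 15 peaks for Ubx and 20 for Abd-B in Experiment 1, 14 for Ubx, 19 for mutant Ubx and 23 for Ubx+Hth in Experiment 2, and 31 sites, by construction more than at 1e-10. With the bounds widened Abd-B had 20 peaks. With every list limited to its 1793 best-scoring peaks, the length of the mutant list, Abd-B kept 3 peaks in the region and Abd-A, Ubx of Experiment 2 and Ubx+Hth 5 each, so the order of the profiles by number of peaks depends on list length.

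Shares moved as follows. Abd-A peaks with a Ubx partner came to 100% with both lists at 1e-2, with the partner at 1e-2, with equal lists and with the bounds narrowed. The same 4 settings gave 100% for Ubx peaks of Experiment 2 with a Ubx+Hth partner and for those with a partner in Ubx of Experiment 1. With equal lists each of these shares rested on 5 of 5 peaks. In the reverse direction between the Ubx lists, a partner at 1e-2 and narrowed bounds gave 100%. With the partner at 1e-2, Abd-B shares in Ubx and in Abd-A rose to 92.3%, Ubx+Hth in Ubx to 92.9% and Ubx+Hth in mutant Ubx to 64.3%. With equal lists Abd-B in Ubx and Abd-B in Abd-A came to 100% (3 of 3 peaks each), and Ubx+Hth in Ubx to 100% (5 of 5). Ubx+Hth in mutant Ubx came to 80% (4 of 5), Ubx in Abd-B to 50% (3 of 6) and Abd-A in Abd-B to 60% (3 of 5). The shares over all peaks of the equal lists were not counted. Both lists at 1e-2 gave 52.6% for mutant Ubx in Ubx. An overlap of 50% gave 40% for mutant Ubx in Ubx+Hth and 14.3% for the reverse.

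The share of windows with fewer peaks than the region changed with windows of 3R only to 19.5% (Ubx, Experiment 1), 17.1% (Abd-A), 2.44% (Abd-B), 24.4% (Ubx, Experiment 2) and 13.4% (Ubx+Hth). By covered base pairs it was 21.4%, 14.5%, 29.5% and 12.8% for Ubx, Abd-A, Ubx of Experiment 2 and Ubx+Hth. At 1e-2 it was 20.1% for Ubx of Experiment 1, 14.2% for Abd-A, 16.4% for Ubx of Experiment 2 and 28.4% for mutant Ubx, which had been above the median window at 1e-10. Limiting matched peaks to the range of ranks of the region, an alternative added after seeing the data, moved all 7 shares of matched peaks in which the partner ranked higher. Rank numbers in place of percentages, also added later, changed the number of region sites at which Ubx+Hth ranked above Ubx from 7 to 3 of 8 and at which Abd-B ranked above Abd-A from 4 to 1 of 10. The other 5 pairs stayed within 1.5 times. Among them the majority still changed side for mutant Ubx above Ubx, from 2 to 3 of 5, and for Ubx+Hth above mutant Ubx, from 3 to 2 of 5.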
